A study of Mus musculus with 32 samples.

Results

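The clade B serpins of squamous epithelium were described in mouse epidermis 24 h after a single UV exposure. The 10 genes were chosen by name as serpins of stratified epithelia and matched by symbol among the 55401 genes counted: Serpinb2, Serpinb3a, Serpinb3b, Serpinb3c, Serpinb3d, Serpinb5, Serpinb7, Serpinb8, Serpinb12 and Serpinb13. Epidermis of 32 hairless mice of a mixed SKH-1/SV129/BL6/J background, aged 10 to 14 weeks, was sequenced, with 1 library per mouse. The mice were wild type (WT) or labelled Ppard-/- (KO, without the gene for the nuclear receptor PPARβ/δ according to the label) and were either sham-treated (Control) or collected 24 h after 120 mJ/cm2 on the back (UV). Each combination of genotype and treatment held 8 mice, 4 males and 4 females. All mice are hairless, and the epidermis was separated from the dermis before RNA was taken from the whole sheet. In such bulk RNA, fewer cells of a type and less RNA per cell cannot be told apart.

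Serpins are protease inhibitors that offer an exposed reactive centre loop as bait. A target protease that cuts the loop is trapped in a dead complex with the serpin. Members of clade B lack a classical secretion signal, and most of them stay inside the cell. In stratified epithelia they are known as guards against cathepsins, plasminogen activators and trypsin-like enzymes, and several are linked to skin barrier disease in humans. All 10 genes sit in 1 cluster on chromosome 1, from the start of Serpinb5 at 106861173 to the end of Serpinb8 at 107610484 (GRCm38). The Serpinb3 genes lie on the minus strand and the other 6 members on the plus strand.

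The Serpinb3 paralogs are the mouse counterparts of the human squamous cell carcinoma antigens, inhibitors of cysteine and serine proteases. The stretch that encodes the reactive centre loop is shown for them because it is the part that meets the protease. It was read from the GENCODE M21 transcripts, and capitals mark bases that differ from Serpinb3b or are unpaired with it.
Serpinb3b: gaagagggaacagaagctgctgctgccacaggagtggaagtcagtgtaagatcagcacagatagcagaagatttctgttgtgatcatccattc
Serpinb3a: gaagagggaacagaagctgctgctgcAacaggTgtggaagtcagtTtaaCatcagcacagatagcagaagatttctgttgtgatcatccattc
Serpinb3c: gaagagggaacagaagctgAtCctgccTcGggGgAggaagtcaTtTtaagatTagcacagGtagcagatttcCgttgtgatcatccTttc
Serpinb3d: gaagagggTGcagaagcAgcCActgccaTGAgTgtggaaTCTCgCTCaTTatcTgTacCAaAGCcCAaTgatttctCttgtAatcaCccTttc

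Across these 93 coding bases Serpinb3a differed from Serpinb3b at 4 positions and Serpinb3d at 32, while Serpinb3c is 3 bases shorter and had 12 unlike bases. Over the whole coding sequence, Serpinb3a and Serpinb3b were 92.9% identical, and the 6 pairs of paralogs ranged from 86.3% to 93.1%. The other 39 pairs of members ranged from 50.04% to 61.3%. By default HTSeq leaves out reads that align in several places, so the share of each transcript that no other gene carries was computed. Of all 100-base windows of the transcript, 93.4% were unique for Serpinb3a, whose shared windows all lay in the pseudogene Gm8080. The share was 99.5% for Serpinb3b and for Serpinb3c, which share 8 windows with each other, and 100% for each of the other 7 members. At 50 bases the unique share was 84.9% for Serpinb3a, 85.3% for Serpinb3b, 87.8% for Serpinb3c and 86.6% for Serpinb3d. Apart from sequence, Serpinb3b and Serpinb3c overlap in 35 exon bases, and 291 exon bases of Serpinb2 (12.4%) also belong to Serpinb10 on the same strand.

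Each library held 22919428 to 40653581 reads assigned to genes. Expression of sex-linked genes matched the labelled sex in 32 of 32 mice. The p53 targets Cdkn1a and Mdm2 were higher in each UV-exposed mouse than in any control of the same genotype. Cdkn1a ranged from 309.2 to 385.7 cpm (counts scaled to library size) in WT Control and from 1336 to 2238 in WT UV. Reads on Ppard were not lost in the libraries labelled KO. They ranged from 70.3 to 88.9 cpm in KO Control against 87.3 to 104.9 in WT Control, and from 174.6 to 238.7 in KO UV against 252.0 to 325.9 in WT UV. The deleted part of the gene is not given in the sources used here, and the gene's total count does not show the deletion. Of the 32 genes called between the genotypes without UV, 10 lie within 10 Mb of Ppard on chromosome 17, where 2.56% of the genes tested lie. The library of KO UV female 54F stood apart. Its 6 fibroblast markers (Col1a1, Col3a1, Dcn and others) summed to 1982 cpm, against 5.999 to 9.48 in the other females of its group, and its 10 macrophage and monocyte markers to 1478 cpm, against 229.9 to 368.6. The main KO UV results are therefore also given without this mouse.

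Levels were compared between genes as cpm per kb of exon. In WT Control epidermis Serpinb5 stood first, with a median of 526.3 cpm per kb and a range of 426.3 to 604.6 over 8 mice. It codes for maspin, a serpin that does not inhibit proteases and is known as a suppressor of epithelial tumours. Serpinb3b followed with a median of 215.9 and Serpinb7 with 147.7, and the mice of these neighbours overlapped. Serpinb8 (74.2), Serpinb2 (58.7), Serpinb12 (25.6), Serpinb3a (13.3) and Serpinb13 (12.7) came next, each overlapping its neighbour. Serpinb3d and Serpinb3c were close to nothing, with medians of 0.029 and 0.0096 cpm per kb. The KO Control mice gave the same first 8 genes in the same order.

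After UV the order of the medians changed. In WT UV, Serpinb3b stood first with a median of 420.6 cpm per kb, then Serpinb2 with 347.7 and Serpinb5 with 297.9, and neighbours in this trio overlapped. Serpinb8 followed at 44.7, below the lowest mouse of Serpinb5 in each of its own mice. Serpinb7, ahead of Serpinb8 in the controls, came after it with 21.6, and Serpinb13 lay last of the 8 at 0.54. KO UV epidermis had the same order of these 8 genes, with 373.9 for Serpinb3b, 322.9 for Serpinb2 and 260.5 for Serpinb5.

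**Figure D1:**
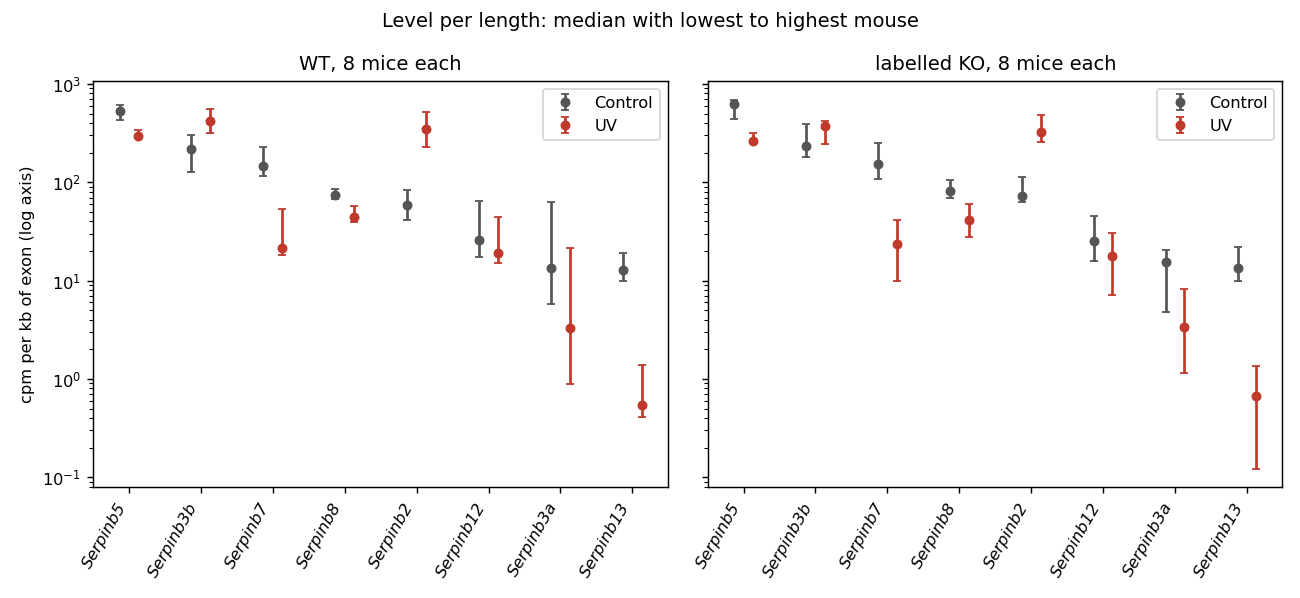
Level of 8 members in cpm per kb of exon on a log axis, in WT (left) and labelled KO mice (right). Points are medians of 8 mice and lines run from the lowest to the highest mouse, grey for Control and red for UV. Serpinb2 and Serpinb3b lie higher after UV, while Serpinb13, the lowest of the 8, lies far below its controls.

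The first question was how these genes differ between UV-exposed and control epidermis. Of the 10 members, 8 reached 1 cpm in 1 or more mice and were tested. In WT epidermis 7 of the 8 members had an adjusted P value under 0.05, against 71% of the 15546 genes tested. Serpinb2 and Serpinb3b rose, so that 2 of 8 were higher where 34.5% of all genes were, and 5 of 8 were lower where 36.5% of all genes were. In KO epidermis 8 of 8 passed, 2 higher and 6 lower, where 70.8% of all genes passed, 37.3% higher and 33.5% lower. Without mouse 54F the KO count was 7. The other KO members stayed called without it, with log2 fold changes of 2.04 for Serpinb2, 0.52 for Serpinb3b, -1.88 for Serpinb3a, -1.09 for Serpinb5, -2.76 for Serpinb7 and -0.97 for Serpinb8. In WT the UV and Control mice did not overlap for 6 of the 8 members, against 43.4% of all genes, and in KO for 5 of 8, against 35.1%. Together the 10 members made up a median of 0.279% of the scaled library size behind the cpm values in WT Control and 0.264% in WT UV. In KO the medians were 0.323% in Control and 0.233% in UV. The median log2 fold change of the members was -0.73 in WT and -1.04 in KO, beside -0.01 and 0.09 over all genes tested.

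**Figure D2:**
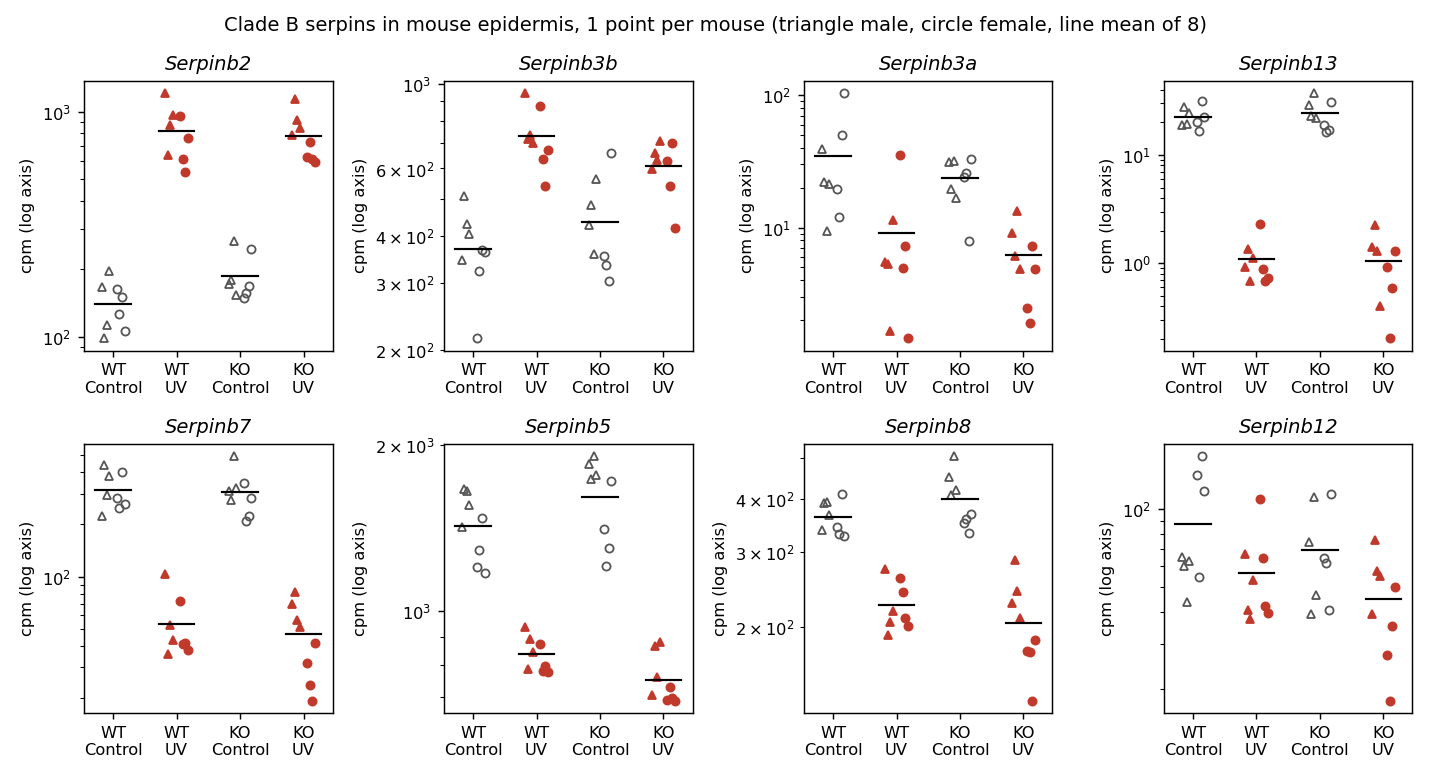
Expression of 8 members in cpm on log axes, 1 point per mouse (triangles males, circles females, open Control, filled red UV), with the mean of 8 mice as a line. Groups of UV-exposed and control mice are apart for Serpinb2, Serpinb5, Serpinb7, Serpinb8 and Serpinb13 in both genotypes, and overlap for Serpinb3a and Serpinb12.

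Serpinb2, also called plasminogen activator inhibitor type 2, is known to inhibit urokinase and is carried by keratinocytes and monocytes. In WT Control mice its expression ranged from 98.1 to 194.9 cpm (median 137.9), and in WT UV mice from 541.4 to 1206 (median 816.6). Every UV-exposed mouse thus lay above every control. The mean went from 139.5 ± 34.3 to 820.2 ± 221.5 cpm (SD, n = 8), a log2 fold change of 2.55 (SE 0.17, adjusted P = 1.72e-13). In KO mice it ranged from 148.5 to 265.1 cpm without UV (median 169.1) and from 599.7 to 1137 after UV (median 758.6), again without overlap. The log2 fold change there was 2.05 (SE 0.16, adjusted P = 1.02e-11). The summed macrophage and monocyte markers moved with it, from 47.1 to 109.5 cpm in WT Control to between 125.7 and 238.3 in WT UV, and their part in the result was not tested.

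Serpinb3b, the paralog with by far the most reads, also rose. Its expression in WT went from a range of 214.7 to 508.8 cpm (median 364.4) to one of 539.1 to 945.3 (median 709.9), with no overlap. The log2 fold change was 0.99 (SE 0.15, adjusted P = 1.30e-06). In KO the ranges were 304.0 to 658.4 cpm (median 392.2) and 417.7 to 706.7 (median 631.1). These overlapped, since control female 69F had 658.4 cpm, and only 2 of the 8 UV-exposed mice lay above every control. The log2 fold change in KO was 0.49 (SE 0.15, adjusted P = 0.0048), and it ranged from 0.40 without control male 52M to 0.65 without 69F.

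Serpinb3a moved the other way from its near twin. In WT Control the values of the 4 males were 39.6, 22.1, 9.42 and 21.3 cpm, and those of the 4 females 19.6, 12.1, 50.4 and 103.5 cpm. After UV the males had 5.48, 5.27, 1.65 and 11.3 cpm, and the females 35.2, 4.93, 7.27 and 1.45 cpm. The UV-exposed mice were low except female 51F with 35.2, and the groups overlapped, with 6 of 8 UV-exposed mice below every control. The log2 fold change was -1.94 (SE 0.52, adjusted P = 0.0015), and it ranged from -2.65 without 51F to -1.52 without control female 73F. In KO the ranges were 7.87 to 33.1 cpm without UV and 1.88 to 13.3 after UV, and the log2 fold change was -2.02 (SE 0.52, adjusted P = 0.0012).

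As a share of the reads of all 4 Serpinb3 genes, which depends on neither library size nor normalization, Serpinb3a fell from a median of 6.69% in WT Control (2.15% to 22.2%) to 0.75% in WT UV (0.22% to 3.86%). In KO the medians were 5.60% and 0.97%. Serpinb3b held the rest, with a median of 93.3% in WT Control and 99.2% in WT UV. With the 4 genes counted as 1, the log2 fold change was 0.87 in WT (adjusted P = 1.16e-05) and 0.43 in KO (adjusted P = 0.014), so the sum followed Serpinb3b.

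**Figure D3:**
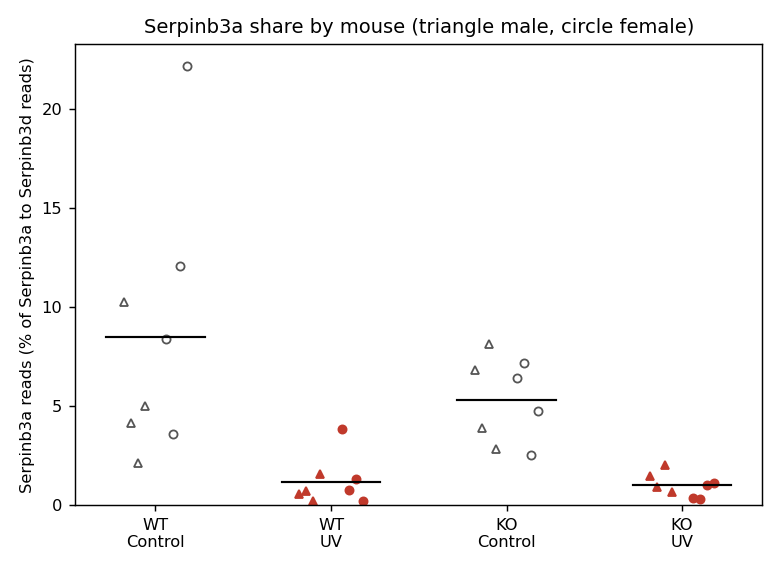
Reads of Serpinb3a as a percentage of the reads of Serpinb3a, Serpinb3b, Serpinb3c and Serpinb3d, 1 point per mouse (triangles males, circles females, open Control, filled red UV), with the mean of 8 mice as a line. The highest share, 22.2%, is that of 1 WT Control mouse, and no UV-exposed mouse exceeds 3.86%.

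Serpinb3c and Serpinb3d did not pass the filter. Each had 64 reads over all 32 mice and 0 reads in 13 mice, where a count of 0 allows up to 3 reads. The most reads in 1 mouse were 12 for Serpinb3c and 11 for Serpinb3d. Serpinb3c had 7 reads in WT Control, 21 in WT UV, 10 in KO Control and 26 in KO UV, each summed over 8 mice, and Serpinb3d had 16, 26, 5 and 17. No test was run on these counts.

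The promoters of the twins are shown because the genes moved in opposite directions. The 250 bases before the RefSeq start (GRCm38.p6) are printed 5′ to 3′ on the minus strand, at chr1:107052304-107052553 for Serpinb3a and chr1:107161115-107161364 for Serpinb3b, with capitals where the aligned bases differ.
Serpinb3a: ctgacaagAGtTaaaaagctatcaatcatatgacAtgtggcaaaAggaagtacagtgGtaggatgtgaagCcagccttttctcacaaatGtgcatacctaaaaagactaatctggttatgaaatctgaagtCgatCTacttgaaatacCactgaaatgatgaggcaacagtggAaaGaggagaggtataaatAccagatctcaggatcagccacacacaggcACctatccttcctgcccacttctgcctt
Serpinb3b: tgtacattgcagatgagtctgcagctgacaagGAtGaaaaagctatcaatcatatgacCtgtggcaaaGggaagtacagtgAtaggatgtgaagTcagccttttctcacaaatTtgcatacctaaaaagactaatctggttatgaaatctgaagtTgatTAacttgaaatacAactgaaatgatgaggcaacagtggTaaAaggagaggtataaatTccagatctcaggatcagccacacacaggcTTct

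These 2 windows overlapped in 226 aligned bases, of which 209 (92.5%) were identical. Both held TATAAA, 65 bases before the annotated start in Serpinb3a and 41 in Serpinb3b, so that their annotated starts are offset against each other. Neither held the AP-1 motif TGANTCA on either strand.

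Serpinb13 fell the most. It is known in humans as hurpin or headpin, an inhibitor of cathepsin L that was found in keratinocytes. In WT Control its expression ranged from 16.5 to 31.6 cpm (median 21.3), and in WT UV from 0.68 to 2.33 (median 0.90), with no overlap. The log2 fold change was -4.37 (SE 0.32, adjusted P = 1.87e-12). In KO it ranged from 16.4 to 37.0 cpm without UV and from 0.20 to 2.27 after UV, with a log2 fold change of -4.58 (SE 0.33, adjusted P = 1.17e-12). After UV these values rest on 20 to 64 reads per WT mouse and 7 to 63 per KO mouse. Mouse 54F had the fewest, and without it the KO value was -4.39.

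Serpinb7, whose human counterpart is mutated in a palmoplantar keratosis, is expressed in the upper living layers of the epidermis. It ranged from 224.7 to 442.7 cpm (median 289.0) in WT Control and from 36.0 to 103.6 (median 42.3) in WT UV. All 8 UV-exposed mice lay below all controls, and the log2 fold change was -2.57 (SE 0.22, adjusted P = 4.26e-11). KO mice ranged from 209.6 to 496.1 cpm (median 299.5) and from 19.2 to 81.3 after UV (median 46.3), a log2 fold change of -2.82 (SE 0.22, adjusted P = 8.86e-12).

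Serpinb5 and Serpinb8 fell less, but without overlap between UV-exposed and control mice of the same genotype. Serpinb5 ranged from 1172 to 1663 cpm (median 1447) in WT Control and from 775.6 to 937.3 (median 819.3) in WT UV, with a log2 fold change of -0.77 (SE 0.07, adjusted P = 5.59e-11). In KO its medians were 1729 and 716.5 cpm, again without overlap, and the log2 fold change was -1.09 (SE 0.07, adjusted P = 5.44e-14). Serpinb8, a furin inhibitor linked to a human peeling skin disorder, ranged from 327.5 to 410.6 cpm in WT Control (median 355.7) and from 191.4 to 274.0 in WT UV (median 214.4). The WT and KO mice gave log2 fold changes of -0.69 (SE 0.08, adjusted P = 2.64e-08) and -0.98 (SE 0.08, adjusted P = 3.49e-11). No mouse of the UV groups reached the lowest control of its genotype for either gene.

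Serpinb12, an inhibitor of trypsin-like serine proteases, was the least clear. Its WT mice ranged from 43.7 to 161.2 cpm without UV (median 64.0) and from 37.5 to 109.5 after UV (median 47.6). The groups overlapped, with a log2 fold change of -0.55 (SE 0.27, adjusted P = 0.065). In KO it ranged from 39.2 to 114.5 cpm and from 18.0 to 76.3, with a log2 fold change of -0.69 (SE 0.27, adjusted P = 0.024). The KO call was lost without 54F, the mouse with the lowest value (adjusted P = 0.060), without control female 69F (adjusted P = 0.084) and without control male 52M (adjusted P = 0.071). The WT value passed the threshold without 51F (-0.75, adjusted P = 0.013), without 63F (-0.67, adjusted P = 0.023) or without 32M (-0.62, adjusted P = 0.047).

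**Figure D4:**
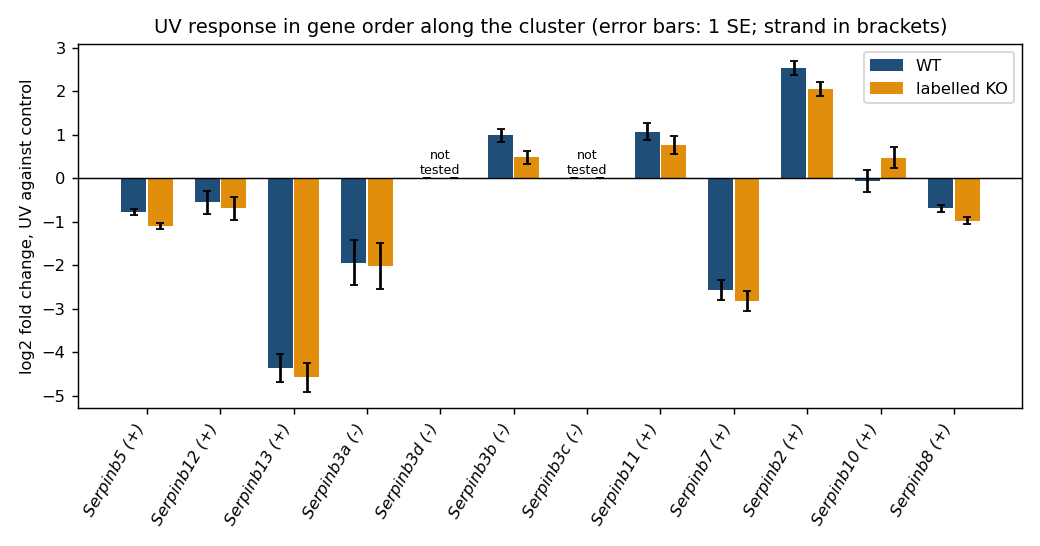
Log2 fold change of UV against Control in WT (blue) and labelled KO epidermis (orange) for the serpin genes of the cluster in their order along chromosome 1, with the strand in brackets and error bars of 1 SE. Serpinb2, with the largest rise, stands after Serpinb7, which fell, and before Serpinb10, which was not called.

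Neighbouring genes of the cluster moved in different directions. Serpinb10 and Serpinb11, which lie in the cluster but are not squamous members, are added for position. From Serpinb5 to Serpinb3a the tested genes had negative log2 fold changes in both genotypes, and Serpinb3b and Serpinb11 rose (Serpinb11 by 1.07 in WT and 0.77 in KO). Serpinb7 fell, Serpinb2 rose and Serpinb8 fell. Serpinb10, which shares exon bases with Serpinb2, had log2 fold changes of -0.06 in WT (adjusted P = 0.85) and 0.48 in KO (adjusted P = 0.090), so the rise of Serpinb2 was not seen for it.

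Genes on both sides of the response held the AP-1 motif, which JUN and FOS proteins bind. RefSeq promoters were at hand for 9 members (Serpinb13 had none). TGANTCA was searched on both strands of the 250 bases before the start. It was found in any entry of 5 of the 9, namely Serpinb2, Serpinb5, Serpinb7, Serpinb8 and Serpinb12. Counted per entry, it was in 6.75% of 32851 promoters. The 9 members have 11 entries, and Serpinb12 held the motif in its first entry but not in its other one. The promoters of the gene that rose the most and of the one that fell the most among those with an entry are shown on the plus strand, with the motif in capitals. They lie at chr1:107511173-107511422 for the first of the 2 entries of Serpinb2 and chr1:107422439-107422688 for Serpinb7.
Serpinb2: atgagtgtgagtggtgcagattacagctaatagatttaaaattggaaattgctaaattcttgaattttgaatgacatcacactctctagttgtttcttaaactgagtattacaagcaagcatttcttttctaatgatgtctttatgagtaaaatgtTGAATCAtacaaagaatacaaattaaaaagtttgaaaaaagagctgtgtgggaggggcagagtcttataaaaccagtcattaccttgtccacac
Serpinb7: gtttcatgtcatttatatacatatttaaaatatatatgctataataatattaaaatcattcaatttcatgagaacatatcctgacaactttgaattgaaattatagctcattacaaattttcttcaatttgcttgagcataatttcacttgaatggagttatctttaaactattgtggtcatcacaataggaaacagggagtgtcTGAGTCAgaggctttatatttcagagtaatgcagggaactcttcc

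The motif begins 94 bases before the start in Serpinb2 and 45 bases before it in Serpinb7, and a match is a description, not a site.

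The second question was whether the KO mice differed. Without UV, 0 of 8 members differed between KO and WT in edgeR's test, where 0.206% of all genes were called. An unadjusted P value under 0.05 was found for 1324 of the 15546 genes tested and for 2 of the members. These 2 members were Serpinb2, with a log2 difference of 0.41 in KO against WT (SE 0.16, adjusted P = 0.44), and Serpinb5, with 0.17 (SE 0.07, adjusted P = 0.44). DESeq2 and limma-trend called none either. After UV, 0 of 8 differed, where 3.31% of all genes were called. Of the members, Serpinb5 alone had an unadjusted P value under 0.05 (-0.15, SE 0.07, adjusted P = 0.19), where 3121 of the 15546 genes tested had one. DESeq2 and limma-trend again called none. Without 54F the genes called after UV went from 514 to 209, and Serpinb5 had -0.18 (adjusted P = 0.16). With 54F included, fibroblast markers differed between these groups, with 6 of 6 higher in KO UV than in WT UV (median log2 difference 4.43). Of the macrophage and monocyte markers, 1 of 10 was higher (median 1.44). The fibroblast sum was 1982 cpm in 54F, with a median of 11.2 cpm in KO UV and 4.33 in WT UV. The marker lists were not tested without 54F, and their part in the serpin values was not tested.

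The difference between the UV responses was tested directly as the genotype-by-UV interaction. In edgeR 0 of 8 members passed, where 0.765% of all genes were called. An unadjusted P value under 0.05 was found for 3042 of the 15546 genes tested and for 4 of the members. The estimates of these 4 members were all negative. This is a smaller rise in KO for Serpinb2 and Serpinb3b, and a larger fall in KO for Serpinb5 and Serpinb8. Serpinb5 had the smallest P value, with an interaction of -0.33 (95% interval -0.51 to -0.14, adjusted P = 0.083). Its adjusted P value was 0.0073 in DESeq2, the only call of the 8 in that tool, which called 792 genes in all, and limma-trend called none. With each of the 32 mice left out in turn, the Serpinb5 estimate in edgeR ranged from -0.38 to -0.27. The adjusted P value ranged from 0.043 to 0.14. It passed without KO UV male 59M (adjusted P = 0.043) and without WT Control female 71F (adjusted P = 0.045). In these runs 346 and 254 genes were called in all, against 119 with all mice. Serpinb2 had -0.49 (95% interval -0.93 to -0.05), Serpinb3b -0.50 (-0.91 to -0.09) and Serpinb8 -0.29 (-0.52 to -0.06), with adjusted P values of 0.23, 0.19 and 0.17. Without 54F, 0 of 8 passed, and Serpinb5 had -0.36 (adjusted P = 0.064). For Serpinb7 and Serpinb13 the 95% intervals were wider, from -0.83 to 0.33 and from -1.02 to 0.61. The WT and KO responses share no mice, and for the 8 genes their log2 fold changes had the same sign. The share of all genes with the same sign was not computed, so this count shows nothing particular to the serpins.

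**Figure D5:**
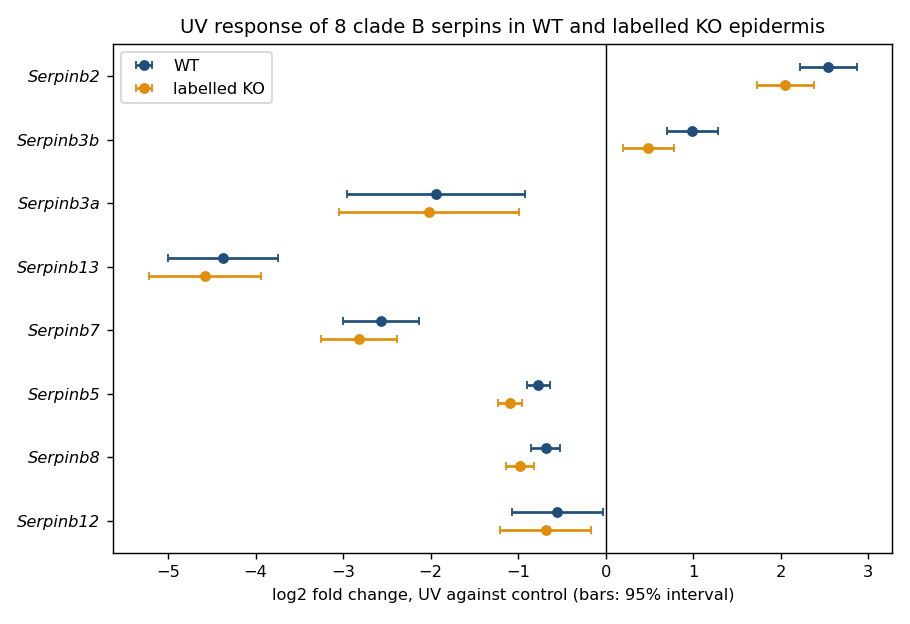
Log2 fold change of UV against Control for 8 members in WT (blue) and labelled KO epidermis (orange), with approximate 95% intervals. The 2 genes that rose have lower values in KO, and the intervals of the genotypes overlap except for Serpinb5, which fell by 0.77 in WT and by 1.09 in KO.

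The sexes were compared last. In WT males 7 of 8 members passed for UV against Control (60.9% of all genes), in WT females 8 (61.3%), in KO males 6 (61.7%) and in KO females 7 (60.7%). The members that did not pass were Serpinb12 in WT and KO males, Serpinb3a in KO males and Serpinb3b in KO females. The sex-by-UV interaction tests that difference directly, and 0 of 8 members passed it in WT or in KO. In neither genotype did any of the 8 have an unadjusted P value under 0.05. The interaction called 0% of all genes in edgeR in either genotype, with 419 genes in WT and 1482 in KO at an unadjusted P value under 0.05, where DESeq2 called 3 and 35.

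Without UV, Serpinb5 was the 1 member that differed between the sexes, where 6.86% of all genes did. Over both genotypes its mean was 1348 cpm in females and 1694 in males. In WT Control the females had 1201, 1293, 1475 and 1172 cpm and the males 1420, 1663, 1649 and 1558. In KO Control the females had 1408, 1208, 1304 and 1722 cpm and the males 1851, 1735, 1911 and 1764. Within KO, every female lay below every male. In WT, female 71F with 1475 lay above male 43M. The log2 difference of females against males was -0.33 (SE 0.07, adjusted P = 0.0051). After UV 0 of 8 passed in edgeR, where 3.03% of all genes did. An unadjusted P value under 0.05 was found for 3175 of the 15546 genes tested and for 4 of the members. These 4 members were all lower in females. The largest of these was Serpinb7 (-0.72, SE 0.21, adjusted P = 0.058). DESeq2, which called 1196 genes here against 471 in edgeR, called 3 of the 4, Serpinb2, Serpinb7 and Serpinb8.

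Markers of epidermal layers and of other cells moved with UV as well. Of 9 keratinocyte markers, 3 were higher and 5 lower in WT UV. Their summed level lay between 70990 and 78880 cpm in WT Control and between 29650 and 44020 in WT UV. The differentiation markers Krt1 (-2.41), Krt10 (-2.17), Lor (-2.38) and Flg (-1.67) fell on the log2 scale, while the basal keratin Krt14 (1.70) and Dsg3 (2.69) rose. The remaining markers of this list, Krt5, Trp63 and Cdh1, did not share a direction, so the basal markers did not move as a set. The 9 neutrophil markers summed to between 54.7 and 163.1 cpm in WT Control and between 684.2 and 1582 in WT UV. Only 7 of the 9 were tested, with 4 higher and 3 not called in WT (median log2 fold change 1.32), so the rise was not shared by all. Of these 9, 2 were at 0 in all WT Control mice and 1 in all WT UV mice. The 7 T cell markers went the other way, from between 111.3 and 210.7 cpm to between 19.4 and 57.7, as did the 6 Langerhans cell markers, from between 679.3 and 1100.0 cpm to between 364.4 and 448.4. The part of these markers in the serpin changes was not tested. The 6 fibroblast markers summed to between 12.6 and 71.9 cpm in WT Control and between 1.73 and 8.44 in WT UV. In KO the fibroblast sum ranged from 2.24 to 92.2 cpm without UV and from 5.999 to 1982 after UV, and the macrophage and monocyte sum from 35.6 to 118.2 and from 128.7 to 1478. Both highest values were those of 54F, and the KO UV medians were 11.2 and 247.4 cpm. For UV against Control, 3 of 6 fibroblast markers were lower in WT (median log2 fold change -2.30) and 0 of 6 passed in either direction in KO (median 1.54). The 5 skeletal muscle markers ranged from 3.72 to 2567 cpm over the 32 mice. Of 4 adipocyte markers, which summed to 9.35 cpm at most, 2 passed the filter.

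The other clade B serpins, most of which lie elsewhere in the genome and are known from leukocytes as well as epithelia, moved mostly upward. Of the 18 named, 10 were tested. In WT 7 rose and 1 fell, and in KO 7 rose and 0 fell, beside 34.5% and 37.3% of all genes higher. Serpinb6c (log2 fold change 2.46 in WT and 2.03 in KO), Serpinb1a, an inhibitor of neutrophil elastase (2.23 and 2.11), and Serpinb9, an inhibitor of granzyme B (2.00 and 2.91), had the largest rises. Their median was 1.10 in WT, where that of the squamous members was -0.73.

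The proteases that clade B serpins can meet changed in both directions. Of 10 cysteine cathepsins, 5 rose and 3 fell in WT, and 6 rose and 3 fell in KO, and the 8 of 10 called in WT are near the 71% of all genes. Ctsl, the cathepsin L that Serpinb13 and Serpinb3 proteins can inhibit, rose by 1.27 in WT and 1.17 in KO on the log2 scale. Ctsz rose by 1.61 and 2.20. Ctsw, a cathepsin of cytotoxic lymphocytes, fell by 2.32 in WT and 1.68 in KO, and Ctso by 1.97 and 0.74. Of 12 serine proteases and receptors of the plasminogen and epidermal systems, 8 were tested, and 5 rose and 2 fell in each genotype, beside 34.5% and 36.5% of all genes in WT and 37.3% and 33.5% in KO. Plaur, the urokinase receptor, rose by 3.93 in WT and 5.0 in KO, and Furin by 0.92 and 0.71. St14, or matriptase, rose by 0.85 and 0.66, and Plau, the urokinase that Serpinb2 inhibits, by 0.65 and 0.79 (adjusted P = 9.48e-06 and 4.68e-07).

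Inhibitors of other families mostly rose. Of 15, 10 rose and 2 fell in WT, and 11 rose and 1 fell in KO, where 34.5% of all genes rose and 36.5% fell in WT, and 37.3% and 33.5% in KO. Slpi, a secreted inhibitor of leukocyte elastase, rose by 6.07 in WT and 6.02 in KO on the log2 scale. Timp1, an inhibitor of matrix metalloproteinases, rose by 2.56 and 3.17. None of the genes of these 4 lists passed for the genotype-by-UV interaction. The KO values of these lists include mouse 54F and are not given without it.

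For each tested member the genes with the most similar profile over the 32 mice were sought among 15112 others, by the root mean square difference of centred log2 cpm. Serpinb2 was nearest to Chka (0.34), Noct (0.34) and Tubb2b (0.35). Serpinb13 was nearest to Paqr5 (0.45), the connexin Gjb5 (0.46) and Tesc (0.55), and Serpinb7 to Cobl (0.27), Aif1l (0.27) and Dlg2 (0.29). Serpinb5 was nearest to Cop1 (0.10), Anxa8 (0.12) and Tmem45a (0.13), and Serpinb8 to Adipor2 (0.12), Atp6v1c2 (0.12) and Ube2r2 (0.13). The difference is not scaled to a gene's own spread, so its size does not rank likeness between members. The profiles cover UV and Control mice together, so the UV change of a gene enters them. The twins moved in opposite directions with UV, so their different neighbours are not a separate result. Serpinb3b was nearest to Atp11b (0.23), Ankrd22 (0.25) and Pde12 (0.26), and Serpinb3a to Slurp2 (0.85) and, less closely, to Them5 (0.91). Serpinb12 was nearest to Srrm4os (0.49), Dkkl1 (0.50) and Nccrp1 (0.50).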

How the data were processed

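Total RNA from the epidermis of 32 mice was sequenced as 100-base single reads. Per the labels and the methods, the authors trimmed reads with cutadapt 1.8, aligned them with STAR 2.5.3a and counted them per gene with HTSeq 0.9.1. The deposited values are whole-number counts without normalization. The strand setting is not given in the sources used here. The submitters' notes name build GRCm38, which GENCODE M21 also uses. Reads on no gene (6.80% to 9.75% of the uniquely aligned reads) were left out.

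The 15546 genes that reached 1 cpm in 1 or more mice were fitted with a mean per group of genotype, sex and treatment in edgeR 4.0.16 (R 4.3.3) with TMM scaling and the quasi-likelihood test. The Benjamini-Hochberg adjustment ran over all of these genes, and the threshold was 0.05. Values in cpm, counts scaled to library size, use TMM library sizes, and log2 fold changes over both sexes are the mean of the sexes. The labels name each mouse as a sample of its group, and 4 mice per group set the precision.

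The members and gene lists were chosen with earlier results of these data known. All 10 members are named, and of other lists the 3 largest WT changes that passed in both genotypes. Some genes that these rules name are not reported here. Serpinb10, Serpinb11, Ctsl, Plau, Krt10, Krt14 and Flg were added after their values were seen. Scripts were tested on simulated data made from these libraries. Alternatives were DESeq2 1.42.0, limma-trend 3.58.1 (log2 cpm with a prior count of 1), RLE scaling, other filters, genotypes fitted separately, sex as a covariate, the Serpinb3 genes summed, and each mouse left out.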

Additional observations from a re-analysis of the deposited data

Results flagged for a closer look

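In groups of 4 mice, 5 of 64 groups of member values and 13 of 64 groups of summed marker values held a mouse far from the other 3 by Dixon's test. Chance flags about 1 in 20 groups. KO Control female 69F was high for Serpinb13 (30.93 cpm, the others 16.4 to 18.8) and for Serpinb3b (658.4 cpm, the others 304.0 to 353.9). WT UV female 51F was high for Serpinb13 (2.326 cpm, the others 0.68 to 0.89) and for Serpinb7 (72.88 cpm, the others 37.6 to 41.8), and WT UV male 32M was high for Serpinb3b (945.3 cpm, the others 701.3 to 735.4).

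Among summed markers, KO UV female 54F was high for fibroblast (1982 cpm), macrophage and monocyte (1478 cpm) and T cell markers (79.23 cpm). KO UV male 58M was high for Langerhans cell (491.3 cpm), macrophage and monocyte (264.9 cpm) and skeletal muscle markers (1227 cpm). Neutrophil markers were high in KO UV female 66F (1544 cpm) and KO UV male 72M (1649 cpm), and skeletal muscle markers in WT UV female 59F (1623 cpm) and WT UV male 38M (2242 cpm). In WT Control, female 71F was low for Langerhans cell markers (720.2 cpm), female 63F low for keratinocyte markers (71440 cpm) and female 73F high for fibroblast markers (30.23 cpm). The part of these differences in the serpin values was not tested.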

How the results depend on the processing

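The UV effects over both sexes of Serpinb2, Serpinb3a, Serpinb3b, Serpinb5, Serpinb7, Serpinb8 and Serpinb13 kept their direction and their side of the threshold in both genotypes under each alternative run. Serpinb12 in KO was not called with sex as a covariate (-0.61, adjusted P = 0.077). Results within 1 sex rest on 4 mice per group and changed more often. The low counts of Serpinb13 after UV and of Serpinb3c and Serpinb3d limit what could be seen for them.

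Members called rose from 0 to 1 (Serpinb5) for the genotype-by-UV interaction in DESeq2, and for the sex difference after UV from 0 to 3 in DESeq2, 1 with RLE scaling and 1 with edgeR's own filter. Genes called with DESeq2 were 78 for genotype without UV, 1116 for genotype after UV, 792 for the genotype-by-UV interaction, 1676 for sex without UV, 1196 for sex after UV, and 3 in WT and 35 in KO for the sex-by-UV interaction. With no filter they were 263 for genotype after UV, 55 for the genotype-by-UV interaction, 327 for sex without UV and 239 for sex after UV. limma-trend called 260 for genotype after UV, edgeR's own filter 653 for sex without UV, and separate fits 1 for the sex-by-UV interaction in KO. The genotype-by-UV estimate, which passed in no case for these genes, changed sign for Serpinb3a with limma-trend (0.16) and with sex as a covariate (0.038), and for Serpinb12 with sex as a covariate (0.004). The causes were not tested.

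With each mouse left out in turn, members called ranged from 7 to 8 for UV in WT and in KO, 6 to 7 in WT males, 6 to 8 in WT females, 5 to 7 in KO males, 6 to 8 in KO females, 0 to 1 for the genotype-by-UV interaction, 1 to 2 for sex without UV and 0 to 2 for sex after UV. Genes called ranged from 20 to 45 for genotype without UV (fewest without 69F), 133 to 983 for genotype after UV (without 51F and without 59M), 56 to 346 for the genotype-by-UV interaction (without 69M and without 59M), 464 to 1753 for sex without UV (without 61F and without 43M), 117 to 1043 for sex after UV (without 59F and without 74F) and 0 to 2 for the sex-by-UV interaction in KO. The genotype-by-UV estimate ranged from -0.49 to 0.63 for Serpinb3a, from -0.31 to 0.061 for Serpinb12 and from -0.44 to 0.09 for Serpinb13, and the UV effect on Serpinb12 in KO males from -0.45 to 0.11.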
